A study of Mus musculus with 12 samples.

Results

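The genes described here are 43 genes of mouse chromosome 5 that were taken as neighbours of Camkk2, the gene deleted in the knockout. They were given as a list of names that sets no limit on measured values and leaves out Camkk2 itself. The list was chosen with earlier results of these data known. All 43 were found among the 14098 genes of the deposited table. Against the annotation of GRCm38 (mm10), 31 of them lie distal of Camkk2, from Anapc5 at 8.05 kb to Atp6v0a2 at 1.85 Mb, measured between the nearest ends of the genes. The other 12 lie on the proximal side, between 7.17 Mb (Rplp0) and 7.91 Mb (1500011B03Rik) from Camkk2, so they share the chromosome but do not flank the gene. The closest genes on the proximal side, such as P2rx4 at 1.43 kb and P2rx7 at 39.7 kb, were not among the 43. Camkk2 lies at chr5:122731170-122779409 on the minus strand. Within 3 Mb of it the table lists 94 genes, of which 31 are the distal members.

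RNA was sequenced from bone marrow-derived macrophages (BMDM), which were grown from the marrow of male and female C57Bl/6 mice, 8 to 10 weeks old, in medium conditioned by L929 cells. The mice were WT or Camkk2-/- (labelled KO here), a deletion carried in the germline and so in every cell of the animal. BMDM of both genotypes were embedded in a collagen and hyaluronic acid hydrogel and held in the soft gel, in the soft gel with interleukin-4 (soft+IL-4), or in a gel stiffened by UV light with a photoinitiator (stiff), and were cultured for 48 h before collagenase released them. The stiff gel also held more collagen than the soft gel. Each of the 6 groups has 2 libraries, described as biological replicates. The sources do not say whether the libraries of a group came from separate animals, so a p-value measures only the spread between these libraries. The strain of the embryonic stem cells in which Camkk2 was targeted, and the number of backcrosses, are not given in the sources used here.

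CaMKK2 is a calcium/calmodulin-dependent kinase that phosphorylates AMPK and CaMKIV. In a knockout made by gene targeting, genes close to the targeted one can differ from those of control mice for reasons that have nothing to do with the protein that was lost. The deletion or its selection cassette can alter transcription nearby, and a stretch of chromosome from the strain in which the targeting was done can stay linked to the allele through backcrossing, which is called a passenger region. Neighbouring genes are therefore read beside the targeted gene. The members have unrelated functions and include subunits of the anaphase-promoting complex, the ribosome and the V-ATPase, the calcium channel Orai1 and chromatin regulators such as Kdm2b and Setd1b.

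Values are TPM, transcripts per 1000000, a measure corrected for transcript length in which all libraries have the same total. Read numbers cannot be recovered from it, so neither depth nor counting error is known. Genes listed at 0 made up 10.7% to 13.4% of the table in the libraries numbered 1 and 5.9% to 7.54% in those numbered 2. WT stiff 1 stood farthest from its replicate, with a root mean square distance of 0.691 in log2(TPM + 1), while the distances in the other groups lay between 0.293 and 0.390. Macrophage markers (8 of 8 found, among them Csf1r, Adgre1 and Cd68) summed to between 23571 and 57980 TPM, most of it Lyz2, and the lists for neutrophils (5 of 7 found), dendritic cells (6 of 6), B cells (5 of 5), T cells (3 of 5), mast cells or basophils (5 of 5), erythroid cells (1 of 5) and fibroblasts (5 of 5) each summed to at most 25.5 TPM in a library. In bulk RNA, fewer cells of a type and less RNA per cell cannot be told apart.

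Camkk2 itself did not follow the genotype label in every library. In WT libraries it was listed at 44.2 and 11.7 TPM in soft, 30.5 and 29.8 TPM in soft+IL-4 and 23.3 and 23.7 TPM in stiff, in the order of the replicate numbers 1 and 2. In KO libraries the values were 46.6 and 11.5 TPM in soft, 11.5 and 8.54 TPM in soft+IL-4 and 37.7 and 10.0 TPM in stiff. WT soft 2 therefore held about as little Camkk2 as the KO libraries of soft+IL-4, and the libraries labelled KO soft 1 and KO stiff 1 held more than any WT library of soft+IL-4 or stiff. The members were compared by label and also, as a description without a test, between the 7 libraries with Camkk2 over 20 TPM and the 5 under it. The value just above that limit was 23.3 TPM and the value just below it 11.7 TPM. No genotype is inferred from this split. Only in soft+IL-4 do the label and the Camkk2 level divide the libraries in the same way. Among the soft and stiff libraries the split runs with the replicate number, all 4 numbered 1 being over the limit and all those under it numbered 2, so that Camkk2 level and replicate number cannot be told apart there, apart from WT stiff 2.

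The sequences just upstream of Camkk2 and of the members that the split turns on are shown first, so that genes whose levels went with or against Camkk2 can be compared at their start sites. The fourth such member, Vps37b, is named only. The RefSeq table of promoters on GRCm38.p6 matched 42 of the 43 members. Each run holds the 250 bases before the start site on the gene's own strand. The start site is that of this promoter table, and other annotated spans of a gene can begin elsewhere. The window of 1500011B03Rik lies inside the longer GENCODE gene, and that of Camkk2 partly overlaps the RefSeq gene, which reaches 122779522. Capitals mark matches, on either strand, to the GC box (GGGCGG), the CCAAT box (CCAAT), the TATA box (TATAAA), the ETS core (CCGGAAG) or the E-box (CACGTG), which do not overlap in these windows.
Camkk2, chr5:122779411-122779660, minus strand: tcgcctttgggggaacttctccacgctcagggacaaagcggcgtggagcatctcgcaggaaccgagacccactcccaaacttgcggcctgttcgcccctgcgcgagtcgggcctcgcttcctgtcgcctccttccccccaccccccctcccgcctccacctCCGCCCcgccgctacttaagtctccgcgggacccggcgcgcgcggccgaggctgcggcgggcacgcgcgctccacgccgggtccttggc
1500011B03Rik, chr5:114813977-114814226, minus strand: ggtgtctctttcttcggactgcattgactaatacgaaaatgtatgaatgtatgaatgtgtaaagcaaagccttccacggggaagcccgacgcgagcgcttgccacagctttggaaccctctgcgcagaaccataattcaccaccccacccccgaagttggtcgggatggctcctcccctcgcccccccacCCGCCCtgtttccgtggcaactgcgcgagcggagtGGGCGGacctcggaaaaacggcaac
Rplp0, chr5:115559217-115559466, plus strand: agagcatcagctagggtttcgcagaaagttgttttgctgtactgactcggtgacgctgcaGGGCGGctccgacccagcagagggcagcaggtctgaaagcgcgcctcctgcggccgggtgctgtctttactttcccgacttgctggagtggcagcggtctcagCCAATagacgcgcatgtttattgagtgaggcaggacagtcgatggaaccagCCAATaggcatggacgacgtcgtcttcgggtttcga
Diablo, chr5:123524165-123524414, minus strand: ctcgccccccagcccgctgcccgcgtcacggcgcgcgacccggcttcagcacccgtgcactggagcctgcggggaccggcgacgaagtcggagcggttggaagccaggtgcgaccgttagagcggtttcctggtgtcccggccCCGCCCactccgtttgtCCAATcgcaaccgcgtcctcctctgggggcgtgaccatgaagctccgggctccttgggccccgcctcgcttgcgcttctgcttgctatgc
The 4 windows hold 32, 19, 19 and 30 CpG dinucleotides in that order, against a median of 19 over the members matched and 6 over all 32851 promoters of the table. A GC box is present in all 4, with 2 in that of 1500011B03Rik, and in 29 of the 42 member promoters (69%), where 32.7% of all promoters hold one. CCAAT occurs in the windows of Rplp0, with 2 matches, and Diablo, with 1, and is absent from those of Camkk2 and 1500011B03Rik. Across the members 18 (42.9%) hold it, against 33.8% of all promoters. The TATA box was found in 2 member promoters (4.76%, against 12.4%), the ETS core in 3 (7.14%, against 6.91%) and the E-box in 4 (9.52%, against 6.02%), and none of these 3 lies in a window shown. The 32851 promoters were not limited to genes expressed in these cells, while 40 of the 43 members passed the filter on expression. These shares therefore compare unlike sets. A match is a run of letters and not a bound site.

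The members spanned a wide range of abundance. By the median over the 12 libraries, 3 members reached 100 TPM or more, 29 lay from 10 to under 100 TPM, 6 from 1 to under 10 TPM and 5 under 1 TPM. The 3 highest were Rplp0, the P0 protein of the ribosomal stalk, with a median of 1332 TPM, Rilpl2, a regulator of membrane traffic, with 155 TPM, and Triap1, a mitochondrial lipid transfer factor induced by p53, with 101 TPM. Kntc1, a kinetochore protein, Abcb9, a lysosomal peptide transporter, and Tctn2, a protein of the ciliary transition zone, stayed under 1 TPM in all or all but 1 library and were not tested, which left 40 members (28 distal and 12 proximal). Most of the tested members held steady across the libraries, and the highest library exceeded the lowest by 1.20 times in Sbno1 and by 8.46 times in 1500011B03Rik, with a median ratio of 1.64. WT stiff 1 was the highest library for 11 of the 43 members and the lowest for 7. In that library Rilpl1 reached 9.66 TPM where the other libraries lay between 1.51 and 4.33 TPM, and Kntc1 reached 5.50 TPM where the others lay at or under 0.867 TPM.

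**Figure D1:**
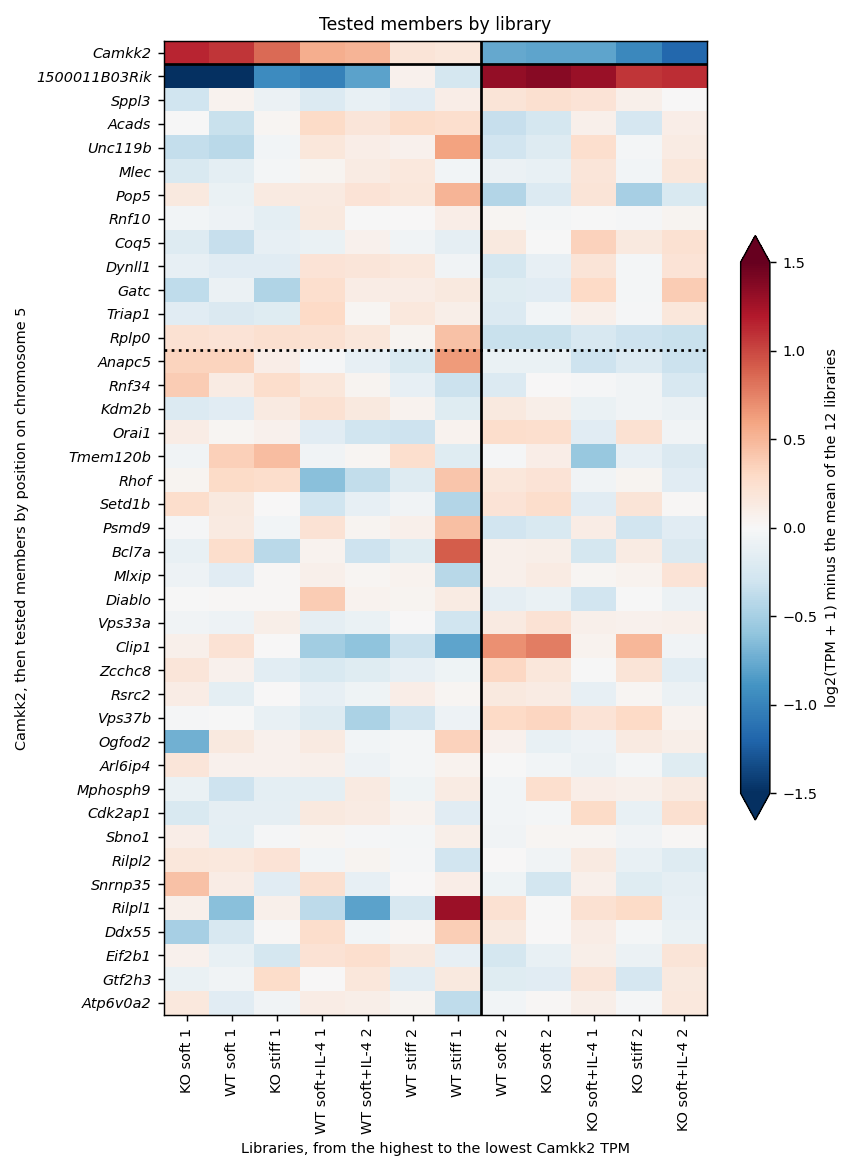
Difference of log2(TPM + 1) from the mean of the 12 libraries for Camkk2 (top row) and the 40 tested members, ordered along the chromosome, with proximal members above the dotted line. Libraries run from the highest Camkk2 TPM on the left to the lowest, and the vertical line stands at 20 TPM. The row of 1500011B03Rik is blue or pale to the left of that line and red to its right, Rplp0 changes in the opposite direction with a smaller range, and most other rows stay pale apart from WT stiff 1.

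Between the genotype labels, no member was called in any of the 3 gel conditions. Differences are given as log2 fold changes of KO against WT on log2(TPM + 1), a scale on which changes at low TPM appear too small, and a gene was called where limma's Benjamini-Hochberg adjusted p over the 11194 genes tested was under 0.05. In soft, 0 of 40 members were called where 0% of all genes were, and 1 member (2.5%) had an unadjusted p under 0.05, against 1.16% of all genes. In soft+IL-4, 0 of 40 were called, again with 0% of all genes, and 2 members (5%) had an unadjusted p under 0.05, against 2.08%. In stiff, 0 of 40 were called where 4.93% of all genes were, and 3 members (7.5%) had an unadjusted p under 0.05, against 18.2%. Without WT stiff 2, which leaves only WT stiff 1, the library farthest from its replicate, 7 of 40 were called in stiff, against 24.9% of all genes. Of these Anapc5, Bcl7a, Rilpl1 and Unc119b were lower in KO and Clip1, Mlxip and Setd1b higher. The median absolute log2 fold change of the members was 0.07 in soft, 0.13 in soft+IL-4 and 0.19 in stiff. Over all genes tested it was 0.08, 0.10 and 0.19. No member passed limma's test of a KO against WT difference that differs between conditions, with 0 of 40 called for soft+IL-4 against soft (0% of all genes) and 0 of 40 for stiff against soft (0.974%), and with 1 (2.5%) and 2 (5%) members at an unadjusted p under 0.05, against 1.47% and 10.9% of all genes.

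The 3 distal members nearest to Camkk2 were all lower in the KO libraries of soft+IL-4, without passing the test. Separation of 2 libraries from 2 is common here. In soft+IL-4 it held for 38.9% of the 11193 genes tested other than Camkk2, with KO the lower in 2022 of them. Anapc5, a subunit of the anaphase-promoting complex on the minus strand, has its 3′ end 8.05 kb from Camkk2. Its values in WT libraries were 86.8 and 64.4 TPM in soft, 67.9 and 63.2 TPM in soft+IL-4 and 108 and 58.9 TPM in stiff. Among the KO libraries they were 87.1 and 64.1 TPM, 55.5 and 54.8 TPM, and 74.0 and 59.9 TPM in the same order. Both KO libraries of soft+IL-4 thus lay below both WT libraries, while in soft and stiff the ranges of the labels overlapped. The log2 fold change was -0.25 (SE 0.266, adjusted p = 1) in soft+IL-4, -0.00 (SE 0.266, adjusted p = 1) in soft and -0.26 (SE 0.266, adjusted p = 0.676) in stiff. In both pairs of soft libraries and in the KO stiff pair, the library with more Camkk2 also had more Anapc5.

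Rnf34, a ubiquitin ligase 70.6 kb from Camkk2, was listed at 26.9 and 21.2 TPM in the soft, 27.7 and 25.4 TPM in the soft+IL-4 and 19.4 and 22.4 TPM in the stiff libraries of WT. Its KO values were 32.2 and 24.7 TPM in soft, 24.3 and 20.6 TPM in soft+IL-4 and 29.6 and 23.6 TPM in stiff. The labels did not overlap in soft+IL-4, where KO was lower (log2 fold change -0.24, SE 0.176, adjusted p = 1), nor in stiff, where KO was higher (0.33, SE 0.176, adjusted p = 0.372). Over all genes tested, 38.9% did not overlap between the labels in soft+IL-4 and 39.1% in stiff. Kdm2b, a histone demethylase that recruits a Polycomb complex to CpG islands, lies 91.3 kb away and overlaps Rnf34 on the opposite strand. It was listed at 14.7 and 18.6 TPM in the soft, 19.7 and 18.5 TPM in the soft+IL-4 and 14.5 and 17.3 TPM in the stiff libraries of WT, while its KO libraries held 14.3 and 17.7 TPM, 15.5 and 15.6 TPM, and 18.4 and 16.0 TPM. The soft+IL-4 libraries again separated by label, with KO lower (log2 fold change -0.28, SE 0.154, adjusted p = 1). The libraries were made with strand information, and whether the quantification used it is not given in the sources used here. In all, 7 members overlap another gene of the table on the opposite strand, Vps37b (with Hip1r) among them, and 0 on the same strand.

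On the proximal side, the 3 nearest members lie 7.17 to 7.39 Mb away. Rplp0 was listed at 1428 and 985 TPM in the soft, 1447 and 1387 TPM in the soft+IL-4 and 1674 and 1276 TPM in the stiff libraries of WT. In the KO libraries it was listed at 1449 and 984 TPM in soft, 1047 and 984 TPM in soft+IL-4 and 1467 and 995 TPM in stiff. The 5 libraries at or under 1047 TPM are the 5 that held Camkk2 under 20 TPM, and they include WT soft 2. Triap1 lay between 86.4 and 124 TPM and Gatc, a subunit of the mitochondrial amidotransferase that charges glutamine tRNA, between 15.9 and 29.0 TPM. For Triap1 the WT and KO libraries of soft+IL-4 overlapped, at 124 and 102 TPM against 106 and 113 TPM (log2 fold change -0.04, SE 0.108, adjusted p = 1), with WT soft at 86.4 and 87.0, WT stiff at 107 and 112, KO soft at 89.3 and 97.1 and KO stiff at 88.6 and 99.1 TPM. Gatc in soft+IL-4 held 26.4 and 24.0 TPM with the WT label and 27.4 and 29.0 TPM with the KO label (0.16, SE 0.145, adjusted p = 1), with WT soft at 20.7 and 19.3, WT stiff at 24.5 and 23.9, KO soft at 16.8 and 19.6 and KO stiff at 15.9 and 21.7 TPM. Both genes overlapped between the Camkk2 levels over the 12 libraries.

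**Figure D2:**
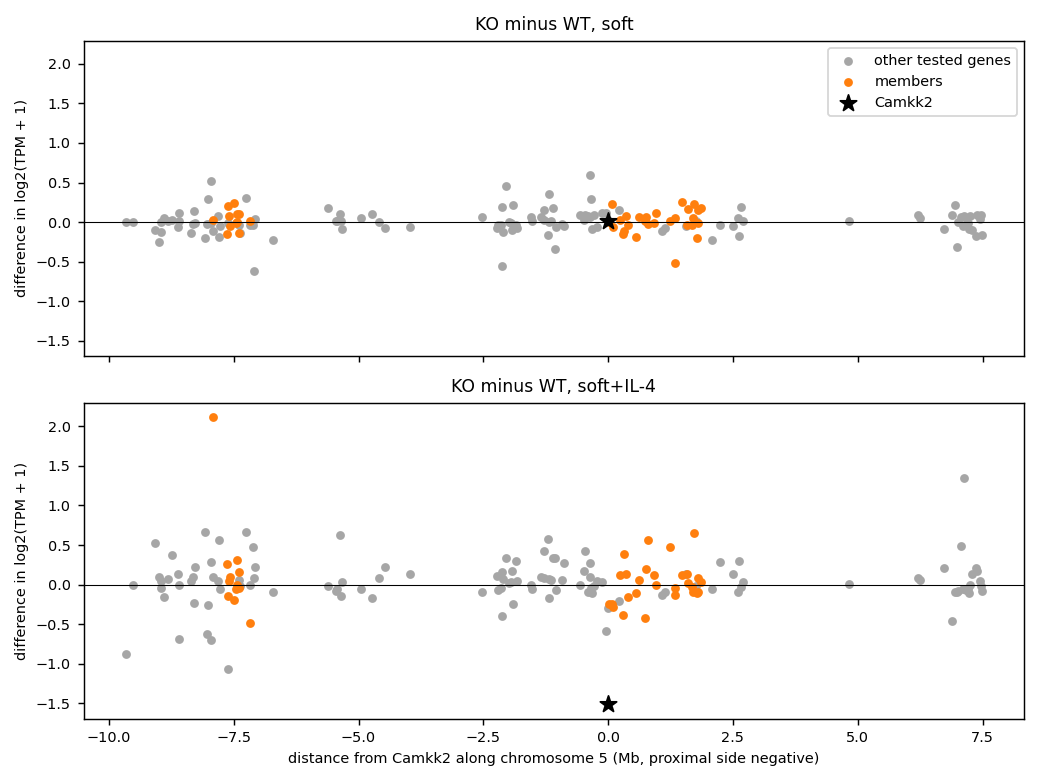
Difference in log2(TPM + 1) between the KO and WT libraries in soft (top) and soft+IL-4 (bottom) for tested genes of chromosome 5 within 10 Mb of Camkk2, against distance in Mb, with members in orange, other genes in grey and Camkk2 as a star. In soft the star sits at 0.02 and members lie between -0.52 and 0.25, while in soft+IL-4 the star sits at -1.51, 1 member (1500011B03Rik) stands at 2.11 and the others lie between -0.48 and 0.65.

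When the libraries were divided by their Camkk2 level, 4 of the 40 tested members did not overlap between the 7 libraries over 20 TPM and the 5 under it. This is 10% of the members, against 1.15% of the 11193 genes tested other than Camkk2. The members and the limit of 20 TPM were chosen with earlier results of these data known, so these shares are a description only. Rplp0 and Diablo were higher where Camkk2 was higher, and 1500011B03Rik and Vps37b were lower. Of these, Rplp0 and 1500011B03Rik are proximal members, which do not flank Camkk2. The background counts the same libraries, so it carries whatever else divides these 7 from these 5, including the replicate number outside soft+IL-4. Over the 4 soft+IL-4 libraries alone 21 of 40 members (52.5%) did not overlap, against 38.9% of all genes. Over the 4 soft libraries alone it was 26 of 40 (65%), against 49.9%. A total of 13 members (32.5%) were free of overlap in both conditions with the same direction relative to Camkk2, against 14.5% of all genes. They were higher with Camkk2 for Rplp0, Diablo, Anapc5, Rnf34 and Arl6ip4, and lower for 1500011B03Rik, Vps37b, Sppl3, Mlec, Coq5, Vps33a, Clip1 and Cdk2ap1.

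1500011B03Rik had the widest range over the libraries of the 40 tested members. It lies at chr5:114808196-114823468 on the minus strand and has no described function in the sources used here. GENCODE lists it as protein coding, while RefSeq gives a shorter gene (chr5:114808196-114813976) of the non-coding class. Its values were 11.3 and 93.0 TPM in the soft, 17.6 and 20.6 TPM in the soft+IL-4 and 30.3 and 38.4 TPM in the stiff libraries of WT. The KO libraries gave 11.5 and 95.5 TPM in soft, 91.3 and 79.8 TPM in soft+IL-4 and 18.5 and 78.2 TPM in stiff. The 7 libraries with more Camkk2 lay between 11.3 and 38.4 TPM and the 5 with less lay between 78.2 and 95.5 TPM. The 2 libraries labelled WT soft thus differed more from each other than either differed from the KO soft library of the same number. In soft+IL-4, where label and Camkk2 level coincide, it was higher in KO (log2 fold change 2.11, SE 1.08, adjusted p = 1), a ratio of 4.31 in TPM + 1. The SE is that of a model in which all 6 groups share 1 spread, and 3 of those groups hold a library on each side of the split. With only the 4 soft+IL-4 libraries in the fit, the same difference had an SE of 0.107 and an adjusted p of 0.00217 by limma. In that fit 2 of 40 members were called, 1500011B03Rik and Rplp0, where 64 of 11194 genes (0.572%) were. Without the 3 libraries whose Camkk2 level goes against their label, the soft difference, which then rests on 1 library a side, was 2.97. It compares WT soft 1 with KO soft 2, kept for their Camkk2 level, and is given with no test.

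Rplp0 followed Camkk2 with a smaller range. The 7 libraries over the limit lay between 1276 and 1674 TPM and the 5 under it between 984 and 1047 TPM. The mean of log2(TPM + 1) was higher by 0.53 where Camkk2 was higher, or 44.4%. By label in soft+IL-4 the KO libraries were lower (log2 fold change -0.48, SE 0.252, adjusted p = 1), and at -0.48 with an SE of 0.0473 and an adjusted p of 0.0161 when only those 4 libraries entered the limma fit. Rplp0 has many processed copies in the mouse genome, and how reads shared with them were assigned was not examined here.

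Diablo, the mitochondrial protein also known as Smac that binds inhibitors of apoptosis, lies 730 kb distal of Camkk2. Its values in WT libraries were 22.6 and 20.3 TPM in soft, 29.5 and 23.3 TPM in soft+IL-4 and 24.5 and 23.0 TPM in stiff. In KO libraries they were 22.2 and 20.8 TPM in soft, 18.1 and 20.9 TPM in soft+IL-4 and 22.6 and 22.2 TPM in stiff. The lowest library over the Camkk2 limit and the highest under it both read 22.2 TPM to 3 digits, so the groups barely parted. In soft+IL-4 the difference by label was -0.42 (SE 0.131, adjusted p = 1), with an unadjusted p of 0.0109.

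Vps37b, a subunit of the ESCRT-I complex that sorts membrane proteins into endosomes, lies 1.23 Mb distal and moved the other way. WT libraries held 24.7 and 30.8 TPM in soft, 21.6 and 17.6 TPM in soft+IL-4 and 23.6 and 20.3 TPM in stiff. KO libraries held 24.5 and 31.5 TPM in soft, 28.9 and 25.8 TPM in soft+IL-4 and 22.9 and 30.8 TPM in stiff. Libraries over the Camkk2 limit ranged from 17.6 to 24.7 TPM and those under it from 25.8 to 31.5 TPM. The soft+IL-4 difference by label was 0.47 (SE 0.189, adjusted p = 1), with an unadjusted p of 0.0342. With only the soft+IL-4 libraries in the limma fit, the adjusted p was 0.467 for Diablo and 0.336 for Vps37b.

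**Figure D3:**
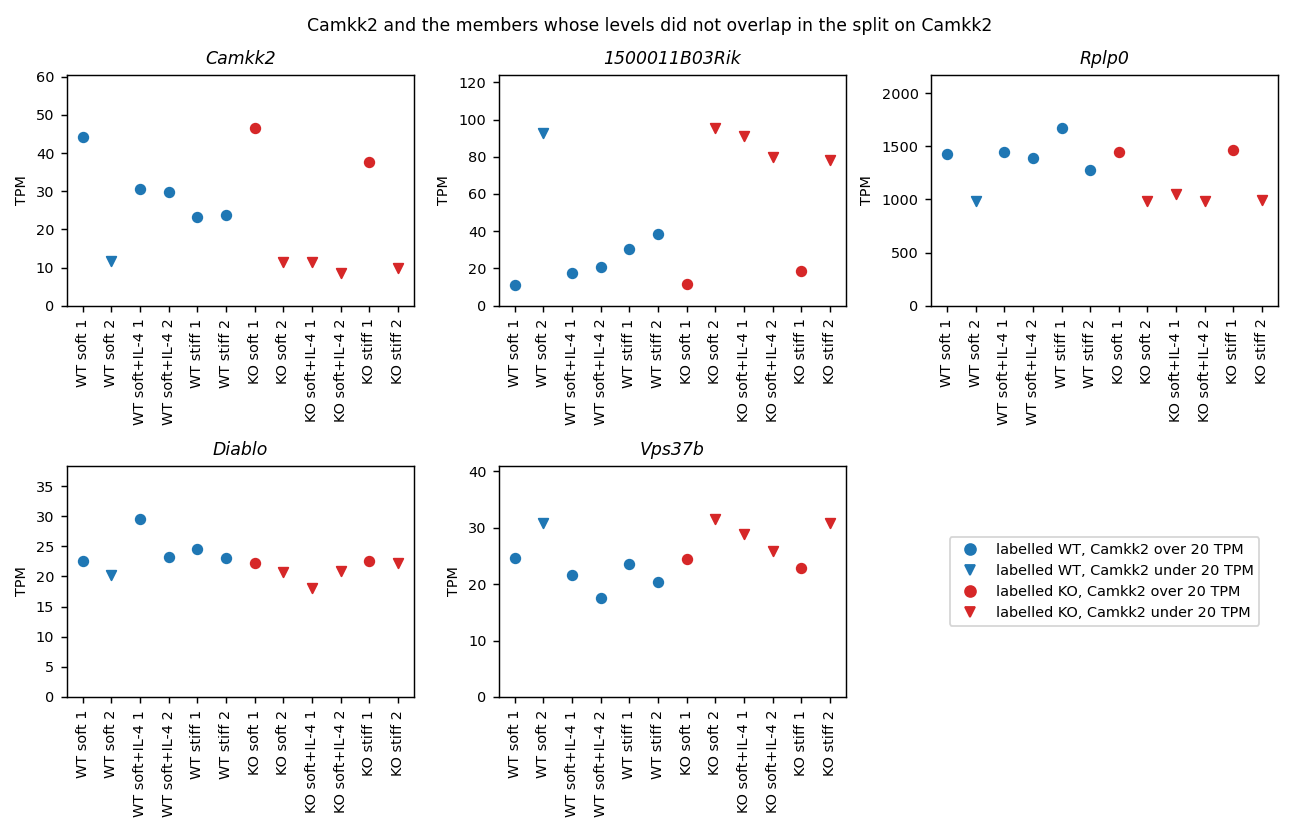
TPM in each of the 12 libraries for Camkk2 and the 4 members whose levels did not overlap in the split at 20 TPM of Camkk2. Colour gives the genotype label and shape the Camkk2 level (circles over 20 TPM, triangles under), and for 1500011B03Rik the triangles sit at 78.2 TPM or more and the circles at 38.4 TPM or less whatever their colour.

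Genes near Camkk2 and genes of the proximal members' band were set beside the other chromosomes. Among tested genes of chromosome 5 within 1 Mb of Camkk2, 1 of 31 (3.23%) did not overlap in the split of the 12 libraries, and within 3 Mb it was 3 of 81 (3.7%). In the band 6 to 10 Mb on the proximal side, which holds the 12 proximal members, 7 of 46 genes (15.2%) did not overlap. Of these, 3 were higher and 4 lower with more Camkk2, and 2 are members. On the other chromosomes 105 of 10054 genes (1.04%) did not overlap. When soft and soft+IL-4 were read separately, 8 of 31 genes (25.8%) within 1 Mb were free of overlap in both with the same direction, as were 15 of 81 (18.5%) within 3 Mb, 21 of 46 (45.7%) in the proximal band and 14.4% of the genes of the other chromosomes. Of the 8 within 1 Mb, 5 were higher with Camkk2 in both conditions (Anapc5, Rnf34, Diablo, P2rx4 and P2rx7). The other 3 were lower (Sh2b3, Vps33a and Clip1). All of them but Diablo overlapped over the 12 libraries. The bins are small and were set with the members' positions known, so these shares describe the libraries and were not tested. Of the 53 tested genes within 3 Mb that are not members, 0 were called in soft+IL-4 by limma and 5 (9.43%) had an unadjusted p under 0.05, against 2.08% of all genes. P2rx7, a channel gated by ATP, held 28.7 and 35.8 TPM in the WT libraries of soft+IL-4 against 19.8 and 22.2 TPM in the KO libraries (log2 fold change -0.59, unadjusted p = 0.00132, adjusted p = 1). It is named after its values were seen.

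**Figure D4:**
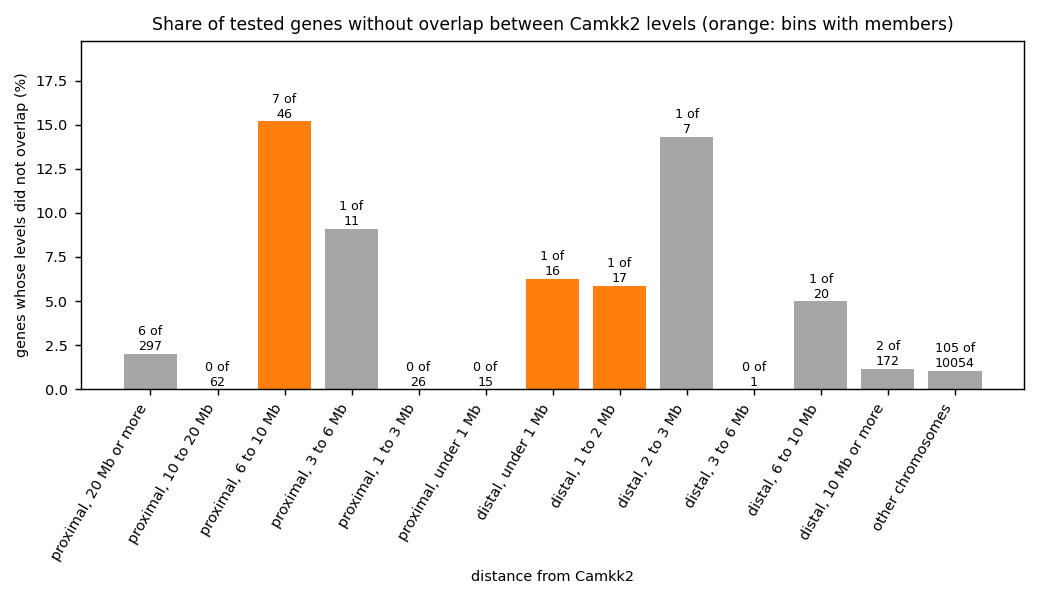
Share in percent of tested genes whose levels did not overlap between the 7 libraries with Camkk2 over 20 TPM and the 5 under it, by distance from Camkk2 on chromosome 5 and for all other chromosomes, with orange bars for bins that hold members and the counts above the bars. The tallest bar is the band 6 to 10 Mb proximal (7 of 46 genes), and the 3 distal bars within 3 Mb rest on 1 gene each.

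By role, the 7 groups of members are described by their values, since no gene at all was called between the genotype labels in soft or soft+IL-4 and no member in stiff. The ligases, proteasome, cell cycle and cell death members include Anapc5, Rnf34, Rnf10, Psmd9 and Diablo. In soft+IL-4 1 of the 8 tested (Diablo, 12.5%) had an unadjusted p under 0.05 by limma, against 2.08% of all genes. Among the 9 tested members of membrane traffic, lysosome and cytoskeleton it was also 1 (Vps37b, 11.1%), and in each other group 0. Groups this small make such shares coarse. The 6 chromatin and transcription members, among them the histone methyltransferase Setd1b and the glucose-sensing factor Mlxip, had a median log2 fold change of 0.04 in soft+IL-4. The median was -0.11 for the first group named and 0.20 for membrane traffic. For RNA and translation it was -0.09, for calcium entry and membrane 0.10 and for metabolism -0.04. The last group is 1500011B03Rik alone. In soft the 1 member with an unadjusted p under 0.05 was Ogfod2, listed at 20.9 and 19.7 TPM in WT and at 11.0 and 17.3 TPM in KO (log2 fold change -0.52, SE 0.199, adjusted p = 1). In stiff they were Acads (-0.37, SE 0.118, adjusted p = 0.127), Gatc (-0.36, SE 0.145, adjusted p = 0.226) and Clip1 (0.82, SE 0.263, adjusted p = 0.128).

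Partner genes outside the list were read beside 4 of the members. Of the 13 tested subunits of the anaphase-promoting complex other than Anapc5, 0 were called between the genotype labels in any condition, and 2 (15.4%) had an unadjusted p under 0.05 in stiff, where 18.2% of all genes did. None was called either among the 9 other tested genes of the Polycomb complex that Kdm2b recruits, with 1 (11.1%) at an unadjusted p under 0.05 in soft+IL-4, against 2.08% of all genes, and 1 in stiff. Nor was any of 7 partners of Orai1 in store-operated calcium entry, with 1 (14.3%) in stiff, or of 8 partners of Setd1b in the Set1 COMPASS complex, with 0 in the 3 conditions. With IL-4, Rybp and Yaf2 of the Polycomb complex fell in WT BMDM, by 0.74 and 0.81 on the log2 scale, Rybp fell by 0.89 in KO BMDM, and the calcium channel Orai2 fell by 1.08 in WT BMDM, while Kdm2b and Orai1 were not called. Anapc13 rose by 0.57 with IL-4 in KO, and Itpr1, a calcium release channel, fell by 0.64 with the stiff gel in WT.

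Some members were called between culture conditions, in no comparison at a higher share than all genes. With IL-4, 3 of 40 members (7.5%) were called in WT, where 10.7% of all genes were, and 3 of 40 in KO, where 10.3% were. With the stiff gel, 3 of 40 were called in WT, against 10.6% of all genes, and 0 of 40 in KO, against 0.0447%, with 1 member (2.5%) at an unadjusted p under 0.05, against 2.64%. The IL-4 and stiff contrasts within a genotype share the soft libraries, which include WT soft 2 and KO soft 1, whose Camkk2 goes against their label.

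The macrophage markers moved with the same contrasts. In WT they summed to 51475 and 54862 TPM in soft, 25082 and 25557 TPM in soft+IL-4 and 23619 and 24708 TPM in stiff. In KO the sums were 52143 and 57980 TPM in soft, 23571 and 23922 TPM in soft+IL-4 and 45977 and 48589 TPM in stiff. Without Lyz2, the lysozyme gene, the sums of the other 7 lay between 5627 and 6437 TPM in the soft, 4109 and 4550 TPM in the soft+IL-4, 4206 and 4543 TPM in the WT stiff and 5434 and 5918 TPM in the KO stiff libraries. Of the 8 markers, 6 were called with IL-4 in WT, 4 with IL-4 in KO, 5 with the stiff gel in WT and 0 with it in KO. Between the genotype labels, 3 of the 8 were called in stiff, where 4.93% of all genes were, and 0 in soft or soft+IL-4. For the stiff against soft interaction 1 was called, where 0.974% of all genes were. The part of these markers in the members' differences was not tested.

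Acads, the short-chain acyl-CoA dehydrogenase of mitochondrial fatty acid oxidation, rose in WT BMDM with IL-4 and with the stiff gel. It was listed at 35.7 and 35.5 TPM in the soft, 55.7 and 51.8 TPM in the soft+IL-4 and 54.3 and 55.0 TPM in the stiff libraries of WT. The log2 fold change was 0.58 (SE 0.118, adjusted p = 0.0138) with IL-4 and 0.60 (SE 0.118, adjusted p = 0.0118) in the stiff gel. In KO it was listed at 45.1 and 37.7 TPM in soft, 47.9 and 48.9 TPM in soft+IL-4 and 46.5 and 38.1 TPM in stiff and was not called. Clip1, which binds the growing ends of microtubules, fell in WT under both conditions. Its values were 34.0 and 47.4 TPM in the soft, 20.1 and 18.8 TPM in the soft+IL-4 and 16.4 and 23.1 TPM in the stiff libraries of WT, a log2 fold change of -1.01 in each case (SE 0.263, adjusted p = 0.0394 and 0.0399). In KO Clip1 was listed at 30.9 and 50.2 TPM in soft, 30.4 and 28.1 TPM in soft+IL-4 and 29.4 and 41.7 TPM in stiff. Clip1 was the higher in the library with less Camkk2 in each soft pair and in the KO stiff pair.

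Dynll1, a light chain of dynein, rose with IL-4 in WT from 77.0 and 71.9 TPM to 100 and 98.7 TPM (log2 fold change 0.41, SE 0.0927, adjusted p = 0.0209). In KO it also rose with IL-4, by 0.32, and was not called by limma (adjusted p = 0.0621). Unc119b, a carrier of lipid-modified proteins, rose in the stiff gel in WT from 8.53 and 9.33 TPM to 18.2 and 12.2 TPM (0.68, SE 0.17, adjusted p = 0.0336), and its highest library was WT stiff 1. Its stiff difference in KO was 0.24 and was not called. In KO with IL-4, Gatc rose from 16.8 and 19.6 TPM to 27.4 and 29.0 TPM (0.61, SE 0.145, adjusted p = 0.0283). Cdk2ap1, a small protein that binds CDK2, rose from 78.2 and 89.4 TPM to 112 and 108 TPM (0.39, SE 0.1, adjusted p = 0.0373). The third member called there, Mlec, a lectin of the endoplasmic reticulum, rose from 64.5 and 70.0 TPM to 86.0 and 85.0 TPM (0.34, SE 0.0917, adjusted p = 0.0452) and was named after its values were seen, as it falls outside the naming rule. With IL-4 in WT, Gatc, Cdk2ap1 and Mlec rose as well, by 0.32, 0.22 and 0.20 in that order, without being called. For none of the genes of this paragraph was a difference between the genotypes in these responses called.

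Each of these calls rests on few libraries. The IL-4 calls of Acads, Clip1 and Dynll1 in WT and of Gatc, Cdk2ap1 and Mlec in KO needed all 4 libraries compared. Each was lost when any 1 of these was left out, which leaves 1 in its group. Fewer of all genes were called in those fits too, so the loss is not particular to these members. The log2 fold change then ran from 0.53 to 0.63 for Acads, -1.24 to -0.77 for Clip1 and 0.37 to 0.46 for Dynll1. It ran from 0.51 to 0.71 for Gatc, 0.30 to 0.49 for Cdk2ap1 and 0.28 to 0.40 for Mlec. The IL-4 call of Clip1 was also lost without the filter on low values (adjusted p = 0.0609) and under median-of-ratios scaling (adjusted p = 0.0508), as was that of Mlec under this scaling (adjusted p = 0.0535), where Unc119b was called in KO instead. In the stiff gel, Acads was lost without WT soft 1 or WT soft 2. Unc119b and Clip1 were lost without WT soft 1, WT soft 2 or WT stiff 1. Fewer of all genes were called without either WT soft library, but more were called without WT stiff 1. The log2 fold change of Unc119b was 0.41 without WT stiff 1 and 0.95 without WT stiff 2. With only the WT soft and WT stiff libraries in the limma fit, 0 of all genes were called, against 1186 in the main fit. The adjusted p there was 0.192 for Acads, 0.243 for Clip1 and 0.374 for Unc119b. Since no gene passed, that fit says nothing particular of these 3. The direction of these named differences did not change in any of these fits.

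**Figure D5:**
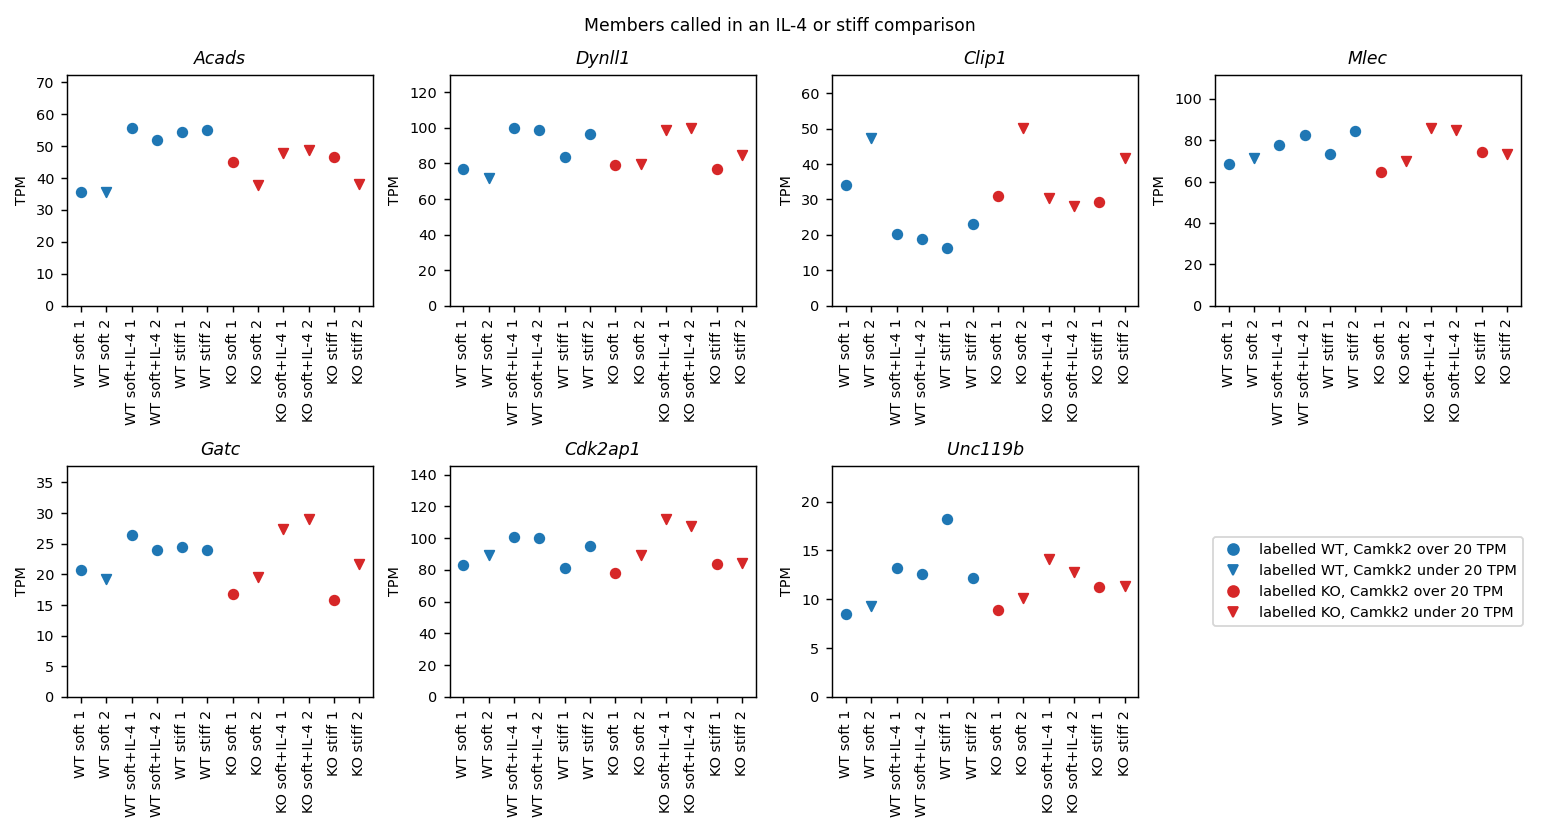
TPM in each of the 12 libraries for the 7 members called in an IL-4 or stiff comparison, with colour for the genotype label and shape for the Camkk2 level. In WT, Acads sits at 35.7 TPM or less in soft and at 51.8 TPM or more in soft+IL-4 and stiff, and Clip1 at 34.0 TPM or more in soft and at 23.1 TPM or less in the others.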

How the data were processed

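RNA of BMDM was sequenced in 12 libraries, 2 for each of 6 groups taken from the sample labels. The authors deposited 1 table of TPM values for 14098 genes, each library summing to 1000000. Per the labels, Trim Galore 0.6.7 and Salmon 1.4.0 were used on mm10, while the methods of the study describe STAR, featureCounts and DESeq, so how the TPM values were made is not settled by the sources used here. TPM keeps no depth and gives no counting error.

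The 11194 genes that reached 1 TPM in 2 or more libraries were tested by limma (version 3.58.1, R 4.3.3) on log2(TPM + 1), in 1 model with a mean per group, eBayes with a trend, and Benjamini-Hochberg adjustment over all genes tested at 0.05. With 2 libraries a group, the smallest exact permutation p for 1 gene is 0.333, so none is given. Positions were read from GENCODE vM21 (GRCm38), where 13521 of the 14098 symbols had 1 entry, and promoter sequences from RefSeq on GRCm38.p6. The code was tested on simulated data.

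The members, the limit of 20 TPM and the gene lists were chosen with earlier results of these data known. Named were the 3 members nearest to Camkk2 on each side, members without overlap in the split on Camkk2, members called between genotypes, and in each culture comparison the 2 called members that rose most and the 2 that fell most. Alternatives were a pseudocount of 0.1, no filter, median-of-ratios scaling, a replicate block, only the groups compared, a log2 fold change of at least 1 and each library left out. Leaving out the 3 libraries that go against their label, and the splits of the soft libraries alone, of soft and soft+IL-4 jointly and without WT stiff, were added after the data were seen. The stiff libraries alone were split too, and read only in the closing section.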

Additional observations from a re-analysis of the deposited data

How the results depend on the processing

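Between genotype labels, the count of 0 called members in soft+IL-4 became 2 with only the groups compared in the fit. In that fit 64 of 11194 genes (0.572%) were called. Without the 3 libraries against their label the count was 0 in soft+IL-4, where 1 of 11194 genes was called. The soft comparison then sets 1 library against 1, kept for their Camkk2 level and of different numbers. It is no test of the label, and no count is given for it. None is given for stiff either, which keeps 1 KO library. Leaving out each library in turn gave 0 to 7 called members in stiff and 0 to 1 for the stiff against soft interaction. For IL-4 in WT (3 members) it gave 0 to 1, and for IL-4 in KO (3 members) 0 to 0. For the stiff gel in WT (3 members) it gave 0 to 5, and the count was 1 without the filter and 0 with only the groups compared. With a log2 fold change of at least 1, the count was 1 for IL-4 in WT, against 421 of all genes. It was 0 for IL-4 in KO, against 409, and 1 for the stiff gel in WT, against 444. For the stiff gel in WT, 1065 of all genes were called without the filter and 0 with only the groups compared. Each stiff range peaked without WT stiff 2, where more of all genes were called than in the main fit. For IL-4, fewer were called with any compared library left out. Such fits leave 1 library in a group, so these ranges say nothing particular of the members.

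In the split on Camkk2 (4 members), fewer libraries have to separate when only some are used. In soft+IL-4 alone 21 members did not overlap (against 38.9% of all genes) and in soft alone 26 (against 49.9%). In both with the same direction it was 13 (against 14.5%). It was 13 members (32.5%) in the libraries numbered 1, against 30.2% of all genes, and 14 (35%) in those numbered 2, against 32.9%. In the stiff libraries alone it was 17, against 36.6% of all genes. Leaving out each library gave 4 to 6, counts that have no share over all genes beside them here. Genes called in stiff between genotype labels numbered 4 of 81 (4.94%) within 3 Mb of Camkk2 and 0 of 31 within 1 Mb, against 4.93% of all genes. The soft+IL-4 difference of Triap1, at -0.04, ran from -0.18 to 0.10 when 1 library was left out and changed sign without KO soft+IL-4 1 (0.00) or WT soft+IL-4 1 (0.10).

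Same-numbered libraries deviated together, with a correlation over 0.1, in 3 of 15 pairs of groups. These are the pairs among WT soft, KO soft and KO stiff (0.28 to 0.31), the groups whose libraries lie on both sides of the Camkk2 limit. The other pairs lay between -0.05 and 0.09, so the numbers were not taken to pair the libraries, and what those 3 groups share beyond the number was not tested. With the replicate block 3 members were called for IL-4 in WT, against 1189 of 11194 genes, and 3 for IL-4 in KO, against 1147. For the stiff gel in WT it was 4, against 1169. Between genotype labels 0 members were called, where 0 genes were in soft and soft+IL-4 and 558 in stiff. The depth of the libraries is unknown and limits what can be said of members under 1 TPM.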
